A study of Homo sapiens with 8 samples.

Results

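The genes examined here make and use microRNAs: the Argonaute genes AGO1, AGO2, AGO3 and AGO4, the TNRC6 genes TNRC6A, TNRC6B and TNRC6C, and the processing and export genes DROSHA, XPO5 and DICER1. These 10 genes were chosen by name among the 20046 protein-coding genes of GENCODE release 44 (62700 genes of all kinds), and a peak was counted for a gene when it lay within the gene on the same strand. IGF2BP1 binding was mapped by eCLIP, in which UV light crosslinks a protein to the RNA it touches and the protein is then immunoprecipitated (IP) with its RNA. The cells were H1299, a human lung carcinoma line of WT genotype. They received 0.01% DMSO or 1.5 µM AVJ16, a small molecule inhibitor of IGF2BP1, for 24 h, and were then irradiated at 254 nm and 400 mJ/cm2. Each treatment had 2 IP libraries and 2 size-matched input (SMInput) libraries, 8 in all, made in 2 batches from a single thaw of the line. The replicates are therefore cultures of 1 thaw of 1 cell line.

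IGF2BP1 binds mRNAs through its KH domains, in many cases within the 3'UTR, and is known for affecting their stability and translation. In the microRNA pathway, DROSHA cuts the primary transcript to a hairpin in the nucleus, XPO5 (exportin 5) carries the hairpin to the cytoplasm, and DICER1 cuts it to a short duplex. An Argonaute protein holds 1 strand of the duplex and pairs its seed with target mRNAs, and AGO2 can also cut a fully paired target. The TNRC6 proteins bind Argonaute and bring in the deadenylases that shorten the target's poly(A) tail. The data describe the mRNAs of these proteins as targets of IGF2BP1, and say nothing of microRNA levels or of the proteins themselves.

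Each treatment had 1 list of peaks in which the authors had merged both replicates, with 22311 peaks for DMSO and 22123 for AVJ16. Every peak carried the log2 fold enrichment of IP over SMInput and the −log10 of its p-value. All listed peaks exceeded 3 on both scales, and a log2 enrichment of 3 is an 8-fold enrichment, so a region under either limit is not listed. Peak calling and the merging of replicates can also leave a region out, and a gene without a peak is one with no listed peak. Neither list separates the replicates or gives reads. Depth is thus unknown, no spread between replicates can be had, and no difference between treatments could be tested. Intervals below are 95% Wilson intervals and cover counting error only. The level of each mRNA was not in the lists, so more binding and more RNA could not be told apart, and the identity of the cell line could not be checked from peaks.

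IGF2BP1 peaks were found in 6 of the 10 genes. In the DMSO list, 5 genes had a peak (XPO5, DICER1, AGO2, TNRC6A and TNRC6B), beside 25.2% of all protein-coding genes. In the AVJ16 list, 5 genes had a peak (XPO5, AGO1, AGO2, TNRC6A and TNRC6B), beside 22.6% of all. Of these, 4 genes had peaks in both lists, DICER1 had peaks only in the DMSO list, and AGO1 only in the AVJ16 list. DROSHA, AGO3, AGO4 and TNRC6C had none in either. Among all protein-coding genes, 3983 had peaks in both lists, of 5050 with a DMSO peak and 4540 with an AVJ16 peak. Many other genes thus also had peaks in only 1 list. The DMSO list held 27 peaks in these genes and the AVJ16 list 28, and AGO2 and TNRC6B together held most of them.

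**Figure D1:**
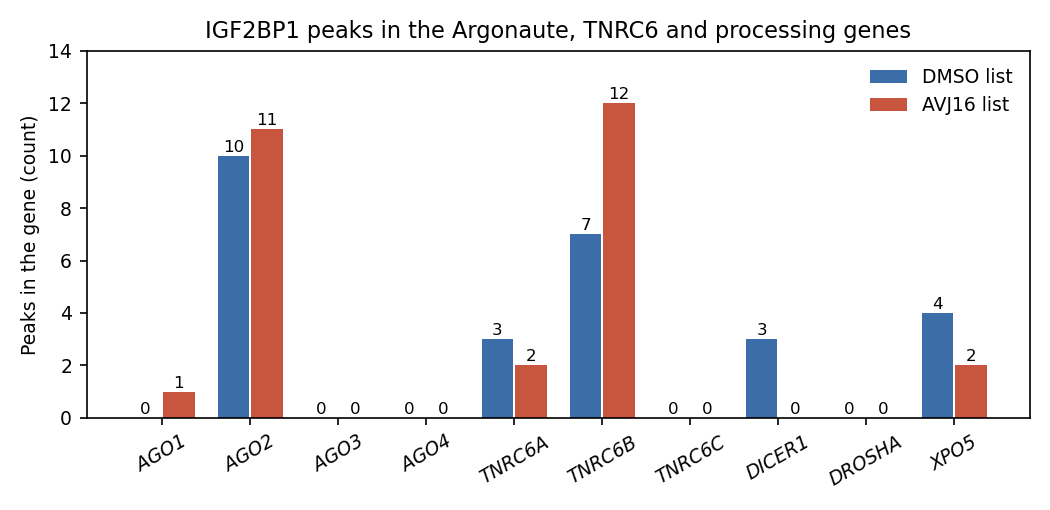
Number of IGF2BP1 peaks within each of the 10 genes, with the DMSO list as blue bars and the AVJ16 list as red bars; counts are printed above the bars and there are no replicate values to give an error. AGO2 (10 and 11) and TNRC6B (7 and 12) stand above the other genes, and 4 genes are at 0 in both lists.

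The RNA at representative peaks is shown here, so that the values below can be tied to sequence. Each line is the 30 nt around the middle of a peak in GRCh38 (hg38), written 5' to 3' as RNA. The most enriched peak of each list is given for each gene, then the other DICER1 peaks and the most enriched TNRC6B peak without a DMSO partner. No window is printed for AGO2. Capitals mark CAU, the core of a known IGF2BP1 motif.
AGO1, AVJ16 list, chr1:35924051-35924080, plus strand: aucccucucaaguccagCAUggauggggaa
TNRC6A, DMSO list, chr16:24824016-24824045, plus strand: cucccaaauagcgcCAUaCAUgcuaaaccg
TNRC6A, AVJ16 list, chr16:24823950-24823979, plus strand: ucaguuugaauacuugaauCAUgcaggcca
TNRC6B, DMSO list, chr22:40332586-40332615, plus strand: gaucacagucuccucgugccugugcagggc
TNRC6B, AVJ16 list, chr22:40332480-40332509, plus strand: caacacacaguaucguaagcgagagauugu
XPO5, DMSO list, chr6:43522878-43522907, minus strand: gccuucaCAUcacaaccuguacugugaguc
XPO5, AVJ16 list, chr6:43523273-43523302, minus strand: caagaaucuggucaccugaugggaucCAUg
DICER1, DMSO list, most enriched, chr14:95086363-95086392, minus strand: ucaCAUgcugcagcuguuuuuuaaggaaca
DICER1, DMSO list, chr14:95086306-95086335, minus strand: ugcugcagaaauuugcagucugcaccuuau
DICER1, DMSO list, chr14:95086915-95086944, minus strand: agucuuuaaccCAUuugCAUuaucugcaga
TNRC6B, AVJ16 list only, chr22:40332232-40332261, plus strand: auaaggaacuguccugcuuuguggggaaga
CAU was in the windows of AGO1, TNRC6A, XPO5 and 2 of the 3 DICER1 peaks, and in none of the 3 TNRC6B windows. A window of this length is shorter than most of the peaks, and the counts over whole peaks are given further on.

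Nearly all of these peaks lay in the 3'UTR. In the DMSO list, 26 of 27 did (96.3%, 81.7 to 99.3), and in the AVJ16 list 28 of 28 (100%, 87.9 to 100), beside 74.6% and 75.0% of all peaks. The exception was a DMSO peak in the coding sequence of XPO5. No peak lay in an intron, and none overlapped another gene on the same strand. AGO2 and TNRC6B held most of these peaks, in 3'UTRs of 11888 and 12567 nt, and peaks of 1 gene are not independent. The intervals leave this out, and an excess in the 3'UTR was not tested. Enrichment was moderate. The median log2 enrichment was 3.47 over the 27 DMSO peaks and 3.22 over the 28 AVJ16 peaks, beside 3.63 and 3.61 over all peaks. A log2 enrichment of at least 4 was reached by 2 peaks in each list (7.41% and 7.14%), beside 29.4% and 27.4% of all peaks.

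DROSHA (chr5:31400494-31532196, minus strand), the RNase III enzyme that starts microRNA maturation, was without a peak in both lists. Its 3'UTR is 938 nt long, and 53.6% of protein-coding genes have a longer one.

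XPO5 (chr6:43522334-43576038, minus strand) went from 4 peaks with DMSO to 2 with AVJ16, and from 340 to 114 nt covered. The DMSO peaks were strung along the end of the mRNA. A peak in the last of the 32 exons ended 12 nt before the stop codon, with a log2 enrichment of 3.47. The next lay 36 to 105 nt past the stop codon at 3.24, and neither of these overlapped an AVJ16 peak. At 462 to 580 nt, the DMSO peak had 3.49 and its AVJ16 partner 3.41, but the partner was short, 26 nt, and the overlap was only 13 nt. At 931 to 1021 nt, the enrichment was 3.99 with DMSO and 3.03 with AVJ16. This difference of -0.96 was the furthest below 0 among the shared peaks of the 10 genes.

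DICER1 (chr14:95086228-95158010, minus strand), the RNase III enzyme of the cytoplasm, had 3 DMSO peaks and no AVJ16 peak. All lay near the distal end of its 3'UTR of 4270 nt. The peak at 3547 to 3590 nt had a log2 enrichment of 3.27. After a gap of 514 nt, 2 touching peaks followed, with 3.55 at 4105 to 4136 nt and 3.24 at 4137 to 4219 nt, and the latter ended 51 nt before the 3'UTR did. Among the 5050 genes bound with DMSO, 71.9% had a best peak above that of DICER1. In the same order, the 3 peaks had −log10 p-values of IP over SMInput of 6.41, 5.56 and 6.00. The median over the 27 DMSO peaks of the 10 genes was 10.9, and 5.56 was the lowest. Since the AVJ16 list stops at 3, the absence of the DICER1 peaks gives no size of a difference.

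AGO2 (chromosome 8, 140520156 to 140635633, minus strand) was the most densely marked Argonaute gene, with 10 DMSO and 11 AVJ16 peaks, all in a 3'UTR of 11888 nt. Of these, 9 in each list lay between 35 and 70% of the way along it, and none lay nearer to the stop codon in the DMSO list. Touching peaks formed 8 separate sites with DMSO and 7 with AVJ16, covering 571 and 541 nt. The best DMSO peak (4.00, at 4349 to 4385 nt past the stop codon) had no AVJ16 partner. The nearest AVJ16 peak began 46 nt away.

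Next to it in AGO2, a run of 3 touching DMSO peaks faced a run of 3 AVJ16 peaks, at 4393 to 4524 and 4432 to 4530 nt. Going towards the stop codon, the DMSO peaks had 3.20, 3.56 and 3.89 and the AVJ16 peaks 4.04, 3.71 and 3.45, so the highest peak stood at opposite ends of the run. The paired differences were 0.84, 0.15 and -0.43 in the same order. The value of 0.84 was the furthest above 0 among the shared peaks of the 10 genes, and 4.04 was the best AVJ16 peak of AGO2. The 2 lists cut this run into peaks at different places. Over the whole run, the mean weighted by peak length was 3.63 with DMSO and 3.76 with AVJ16, a difference of 0.13.

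The other shared AGO2 peaks also differed in both directions. At about the middle of the 3'UTR, a peak went from 3.07 with DMSO to 3.64 with AVJ16, and its neighbour from 3.02 to 3.45. With touching peaks joined, the first of these went from 3.07 to 3.47, a difference of 0.41. A more distal peak went from 3.08 to 3.20, and the last, at 96.4% of the 3'UTR, from 3.45 to 3.08. In all, 5 of 7 shared peaks were above 0, beside 6598 of the 14759 shared peaks of all genes. The median difference in AGO2 was 0.15. Its peaks at 3.02, 3.07 and 3.08 with DMSO lay near the lower limit of the lists, where a fall could hardly be seen. The peaks of AGO2 held the highest −log10 p-values of the 10 genes, 33.1 with DMSO and 40.5 with AVJ16, both at the mid-3'UTR site.

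The other Argonaute genes, which lie next to each other on chromosome 1, had 1 peak among them. AGO1 (chr1:35869808-35930532, plus strand) carried a single AVJ16 peak of 31 nt at 4443 to 4473 nt of a 3'UTR of 10925 nt, with a log2 enrichment of 3.36. A single peak was found in 28.4% of the genes bound with AVJ16, whose median was 3 peaks. AGO4 (chr1:35808016-35857890) and AGO3 (chr1:35930718-36072500), both on the plus strand, had none in either list. AGO3 has a 3'UTR of 16755 nt, longer than that of AGO2, and only 0.128% of protein-coding genes have a longer one. This is the annotated 3'UTR, and whether the cells express AGO3 with it is not known from the lists.

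The TNRC6 genes differed from each other. TNRC6A (chr16:24610209-24827632, plus strand) had 3 DMSO and 2 AVJ16 peaks. A pair of touching peaks just past the stop codon was in both lists. Its first peak had 3.12 with DMSO (115 to 177 nt) and 3.03 with AVJ16 (135 to 179 nt), and its second had 3.85 with DMSO (178 to 269 nt) and 3.02 with AVJ16 (180 to 255 nt). The second difference was -0.83, and the −log10 p-value went from 22.5 to 11.7. A distal DMSO peak at 2031 to 2136 nt, with 3.48, had no AVJ16 partner. With AVJ16, 98.3% of bound genes had a best peak above that of TNRC6A, and with DMSO 54.3% had.

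TNRC6B (chr22:40044817-40335808, plus strand) had the largest difference in count, with 7 DMSO and 12 AVJ16 peaks covering 449 and 784 nt. Its 3'UTR is 12567 nt long and its peaks were crowded in the distal part. All 7 DMSO peaks and 11 of 12 AVJ16 peaks lay past 70% of it. The best peaks were close together: a DMSO peak of only 6 nt at 9357 to 9362 nt, with 4.20, and an AVJ16 peak at 9240 to 9267 nt, with 4.05. The single AVJ16 peak outside the cluster lay at 809 to 847 nt, with 3.20.

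Within the TNRC6B cluster, the shared peaks nearest to the stop codon were higher with AVJ16 and the rest lower. The first went from 3.64 to 4.05 and the second from 3.57 to 3.71. The 6 nt peak had the same AVJ16 partner as the second, and differed by -0.50. The last 3 shared peaks went from 3.23 to 3.03, from 3.61 to 3.06, and from 3.59 to 3.02. The median difference over the 6 shared peaks was -0.35. The 7 AVJ16 peaks without a DMSO partner had enrichments of 3.00 to 3.94, and the highest of these began upstream of every DMSO peak of the cluster. The single DMSO peak without a partner, at 11165 to 11297 nt, had 3.12.

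TNRC6C (chr17:77958703-78108822, plus strand) had no peak in either list, with a 3'UTR of 3977 nt.

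**Figure D2:**
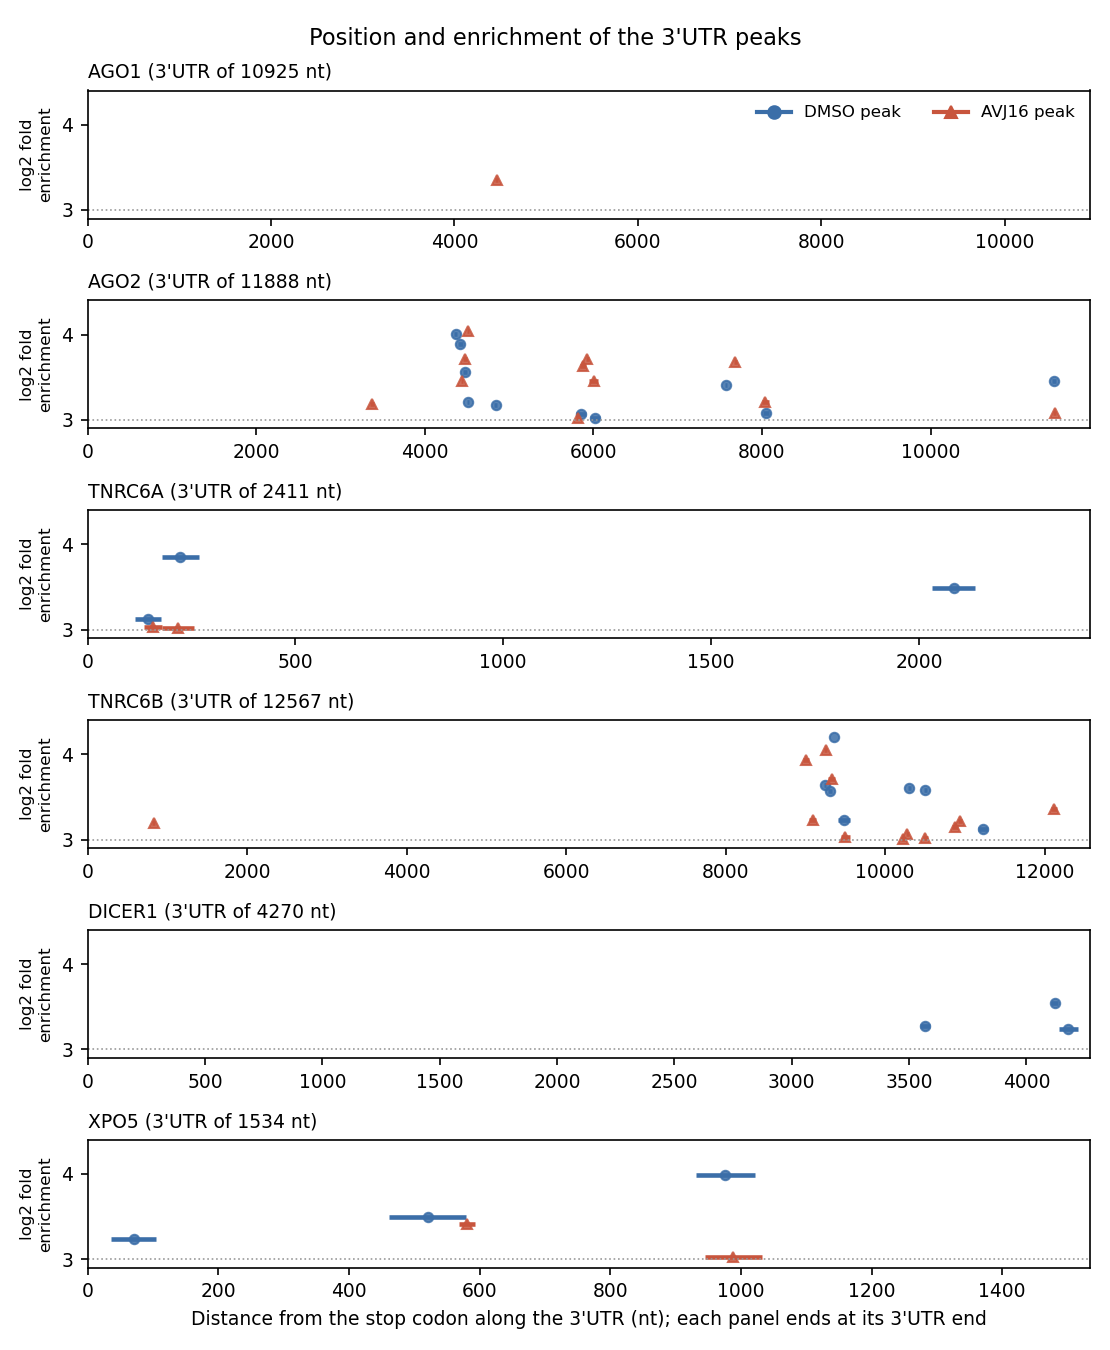
Position (x axis, nt from the stop codon, each panel scaled to the 3'UTR of its gene) and log2 fold enrichment of IP over SMInput (y axis) of each 3'UTR peak of the 6 bound genes; bars span the peak, blue circles are DMSO peaks, red triangles AVJ16 peaks, and the dotted line is the lower limit of the lists. The peaks of TNRC6B and DICER1 gather towards the distal end, and those of AGO2 between 35 and 70% of the 3'UTR.

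Over the 10 genes, the middle of a 3'UTR peak lay at a median of 65.7% of the 3'UTR with DMSO and 64.5% with AVJ16, beside 42.3% and 42.2% over all 3'UTR peaks. The genes differed in this. All DMSO peaks of TNRC6B and DICER1 lay past the median of all peaks, and 5 of the 10 of AGO2, the pair of TNRC6A just past the stop codon and the peaks of XPO5 at 4.60 and 34.0% lay before it. Peaks of 1 gene share a transcript and are not independent. Per kb of 3'UTR, the DMSO list held 1.96 peaks in XPO5, 1.24 in TNRC6A, 0.841 in AGO2, 0.703 in DICER1 and 0.557 in TNRC6B. The median over genes with a 3'UTR peak was 1.28 with DMSO and 1.34 with AVJ16. With AVJ16, the values were 1.30 in XPO5, 0.955 in TNRC6B, 0.925 in AGO2, 0.830 in TNRC6A and 0.0915 in AGO1. The long 3'UTRs of AGO2 and TNRC6B thus had many peaks but not many per length.

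The lists were then compared peak by peak. Of the 27 DMSO peaks, 17 overlapped an AVJ16 peak (63.0%, 44.2 to 78.5), beside 66.2% of all DMSO peaks. Of the 28 AVJ16 peaks, 17 overlapped a DMSO peak (60.7%, 42.4 to 76.4), beside 70.8% of all. The intervals include the values of all peaks in both directions. The 10 DMSO peaks without a partner were 3 in AGO2, 3 in DICER1, 2 in XPO5, 1 in TNRC6A and 1 in TNRC6B. The 11 AVJ16 peaks without a partner were 7 in TNRC6B, 3 in AGO2 and 1 in AGO1.

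At the 17 shared peaks, the log2 enrichment with AVJ16 minus that with DMSO ranged from -0.96 to 0.84 with a median of -0.09, beside -0.06 over all 14759 shared peaks. It was lower by over 0.5 at 4 peaks (2 in TNRC6B, 1 in TNRC6A and 1 in XPO5), or 23.5%, beside 20.1% of all. It was higher by over 0.5 at 2 peaks, both in AGO2, or 11.8%, beside 12.6% of all. At 11 peaks the difference was within 0.5. The shares were thus near those of all shared peaks. The differences above 0.5 lay in AGO2. Of all 14759 shared peaks, 8161 were lower with AVJ16 and 6598 higher. Without AGO2, 8 of the 10 remaining shared peaks were lower with AVJ16, the median was -0.35, and none was higher by over 0.5. This split was made after the values were seen, and no test of it was possible. AGO2 peaks higher with AVJ16 had 3.02, 3.07, 3.08, 3.20 and 3.56 with DMSO, and the lists stop at 3. At all but the last, a fall of over 0.5 would have taken the peak off the AVJ16 list. The same limit held for shared peaks of TNRC6A at 3.12 and TNRC6B at 3.23.

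**Figure D3:**
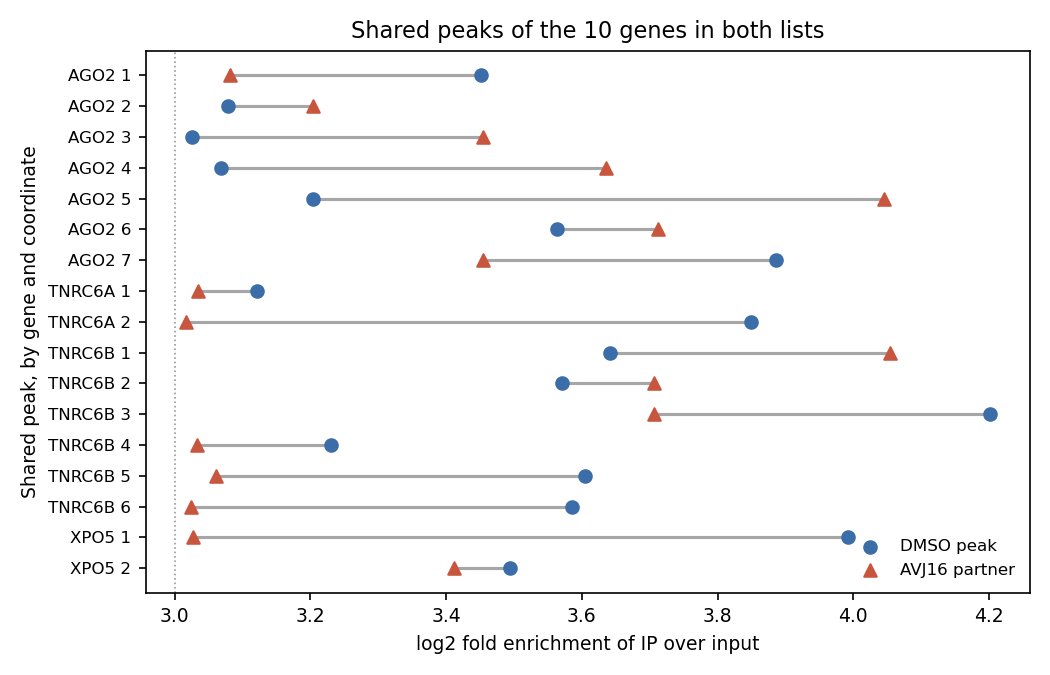
Log2 fold enrichment (x axis) of the 17 shared peaks of the 10 genes, each row 1 DMSO peak numbered by coordinate within its gene; blue circles are DMSO, red triangles the AVJ16 partner, and the dotted line is the lower limit of the lists. AVJ16 lies to the right at 5 of 7 peaks of AGO2 and to the left at both peaks of TNRC6A and of XPO5.

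**Figure D4:**
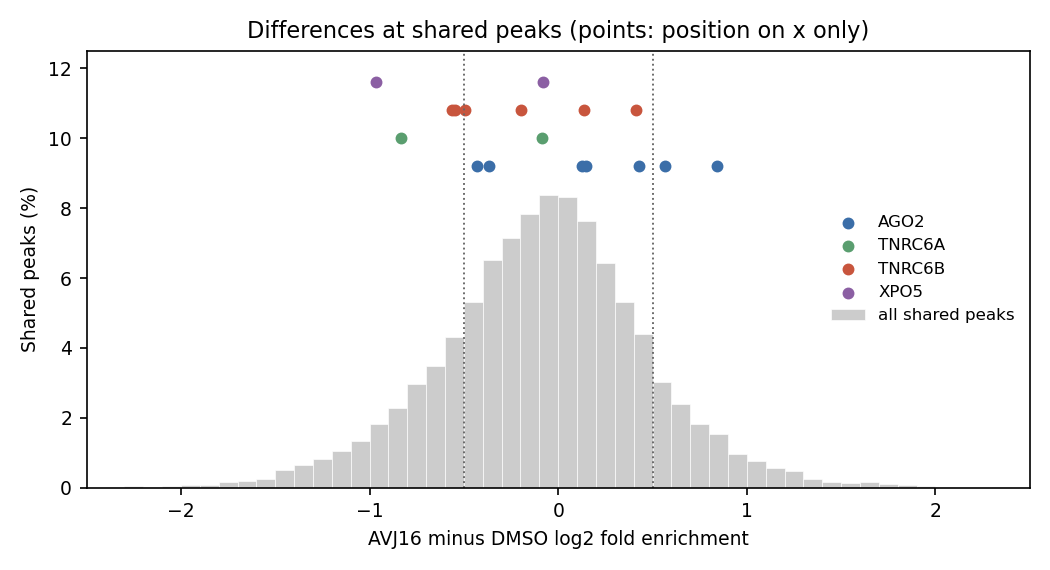
Percentage of all 14759 shared peaks (grey bars, y axis) by AVJ16 minus DMSO log2 fold enrichment (x axis, bins of 0.1), with the 17 shared peaks of AGO2, TNRC6A, TNRC6B and XPO5 as points above, whose height has no meaning; dotted lines mark -0.5 and 0.5. The points span the middle of the distribution of all shared peaks, from -0.96 to 0.84.

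The core of a known IGF2BP1 motif, the m6A core and motifs named by the study were counted in the 3'UTR peaks. Each peak was widened by 25 nt on both sides and read on the mRNA strand. The motifs given after the m6A core are those of the study. They were found as enriched in the peaks of this same experiment. The study states that they need not be the sites that the protein itself recognizes. With DMSO, CAU was in 25 of 26 peaks, beside 89.9% of all 3'UTR peaks, and with AVJ16 in 24 of 28, beside 88.8%. CAU is so short that most windows of this length would hold it, and no unbound 3'UTR sequence was searched. Its count thus says little of binding. GGAC, the core of the m6A consensus, was in 5 and 6 peaks (19.2 and 21.4%), beside 23.1% of all in both lists. The GGAC peaks were 3 in AGO2, 1 in TNRC6A and 1 in XPO5 with DMSO, and 3 in AGO2, 2 in TNRC6B and 1 in XPO5 with AVJ16. CCNGUU was in 3 and 2 peaks, beside 12.1 and 11.8% of all. UCCAG was in 3 and 5, beside 16.1 and 15.5%. GNGGCCC was in 0 and 1, beside 1.84 and 2.15%. UUUCCGAA was in none, beside 0.042 and 0.036%, and UCCUNNUGG in none, beside 1.32 and 1.35%. At such low shares, 26 and 28 peaks could show no lack of a motif. The other counts were near those of all 3'UTR peaks, and a match is only a match of letters. The study gives its first motif, UUUCCGAA, a far larger share of its peaks, so exact letters are a different measure.

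The 3'UTRs were also searched for the match to let-7, a microRNA family known to target DICER1. The mature sequence from RefSeq is shown with the seed, bases 2 to 8, in capitals.
hsa-let-7a-5p: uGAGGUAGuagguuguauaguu
The match to this seed, CUACCUC, is shared by the 8 let-7 members in the table. It occurred 2 times in the 3'UTR of AGO2, 1 time in that of AGO1 and 1 time in that of AGO3, and not in the other 7 genes. A shorter match, UACCUCA, to bases 2 to 7 followed by A, was counted after the first result was seen. It occurred 2 times in DICER1, 2 times in AGO4, 3 times in AGO3, 2 times in AGO2 and 1 time in AGO1.

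None of these matches lay within 25 nt of an IGF2BP1 peak in either list. For the full seed match this was 0 of 26 DMSO peaks and 0 of 28 AVJ16 peaks, which allows a share of up to 11.5 and 10.7% (3 counts of the total, in place of the Wilson interval), beside 0.943 and 0.814% of all 3'UTR peaks. In AGO2, the seed match at 5397 to 5403 nt lay 389 nt from the nearest DMSO peak and 394 nt from the nearest AVJ16 peak. The other, at 9723 to 9729 nt, lay 1639 nt from the nearest DMSO peak and 1642 nt from the nearest AVJ16 peak. In AGO1, the match was 3351 nt from the AVJ16 peak. No peak was listed for AGO3 and AGO4 in either list, for AGO1 with DMSO or for DICER1 with AVJ16. Their matches could thus not lie near a peak there.

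A wider list of 54 genes of the pathway gave the setting for these genes. In each list, 28 of them (51.9%) had a peak, beside 25.2% of all protein-coding genes with DMSO and 22.6% with AVJ16. The shares of all genes include genes that these cells may not express, which the lists cannot show. Preference for the pathway was therefore not tested, here, in the groups below or for the 10 genes above. Of the 54, 24 had a peak in both lists and 22 in neither, beside 3983 of all 20046 protein-coding genes with a peak in both. The 54 genes held 128 DMSO and 131 AVJ16 peaks. Their 85 shared peaks had a median difference of 0.01. Of these, 10 were lower and 10 higher by over 0.5 (11.8% each, beside 20.1 and 12.6% of all shared peaks). PABPC1 alone held 30 of the shared peaks. Without it, 55 shared peaks had a median of -0.000823, with 10 lower and 8 higher. This was computed after the values were seen.

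Of 6 nuclear processing genes of the wider list, 2 had a DMSO peak (33.3%) and 3 an AVJ16 peak (50%), where all protein-coding genes had 25.2 and 22.6%. DDX17, a helicase of the DROSHA complex, had 3 DMSO peaks and 1 AVJ16 peak. ADAR, an RNA editing enzyme, had 1 and 1, and KHSRP, which binds some microRNA hairpins, had 0 and 1. DGCR8, the partner of DROSHA, had none. Of 3 genes of export and dicing, 1 had a DMSO peak (33.3%) and 2 an AVJ16 peak (66.7%), again beside 25.2 and 22.6%. RAN, the GTPase that drives export by XPO5, had 2 and 1. PRKRA, a partner of DICER1, had 0 and 1, and TARBP2, another, had none. These genes were named after their values were seen, for their roles beside DROSHA, XPO5 and DICER1.

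The effector steps lie downstream of Argonaute and TNRC6. Of 14 deadenylation genes, 10 had a DMSO peak (71.4%) and 8 an AVJ16 peak (57.1%), and of 10 genes of decapping and decay, 7 had a peak in each list (70%), beside 25.2 and 22.6% of all protein-coding genes. PABPC1 alone gave 30 of the 66 DMSO and 40 of the 70 AVJ16 peaks of the deadenylation genes. CNOT1, the scaffold of the CCR4-NOT deadenylase that TNRC6 proteins recruit, had 11 and 12 peaks, 9 and 11 of them coding. CNOT6L, a deadenylase subunit, had 5 and 6. CNOT8, another deadenylase, had 3 and 3, and of its 2 shared peaks the one at chr5:154876331-154876403 went from 4.29 to 3.11 and the other from 3.06 to 3.20. PATL1, a decapping factor, had 8 and 7. DDX6, a helicase of decay bodies, had 3 and 9, and 2 of its 3 shared peaks were higher with AVJ16 by over 0.5, beside 12.6% of all shared peaks. These 2 had 3.10 and 3.02 with DMSO, near the lower limit of the lists, where a fall could hardly be seen. The peaks of PABPC1, which coats the poly(A) tail, were all coding, with a best enrichment of 5.36 and 6.20. It has near-identical copies in the genome, so its peak values are uncertain.

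Among 14 partners of Argonaute, 6 had a DMSO peak (42.9%) and 7 an AVJ16 peak (50%), beside 25.2 and 22.6% of all protein-coding genes. IPO8, an importin reported to carry Argonaute, had 6 and 6. PUM2, a Pumilio protein that represses mRNAs through their 3'UTRs, had 6 and 9, and its 4 shared peaks had differences of 0.03 to 0.52. Of 7 genes of let-7 and microRNA turnover, 2 had a DMSO peak (28.6%) and 1 an AVJ16 peak (14.3%), beside the same shares of all genes. LIN28B, which blocks let-7 maturation, had 10 and 5. All 7 of its shared DMSO peaks were lower with AVJ16, with differences of -1.39 to -0.04, beside 8161 of all 14759 shared peaks. The 7 had only 5 AVJ16 partners between them, and the overlap at chr6:105081160-105081226 was 1 nt, so they are not independent.

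**Figure D5:**
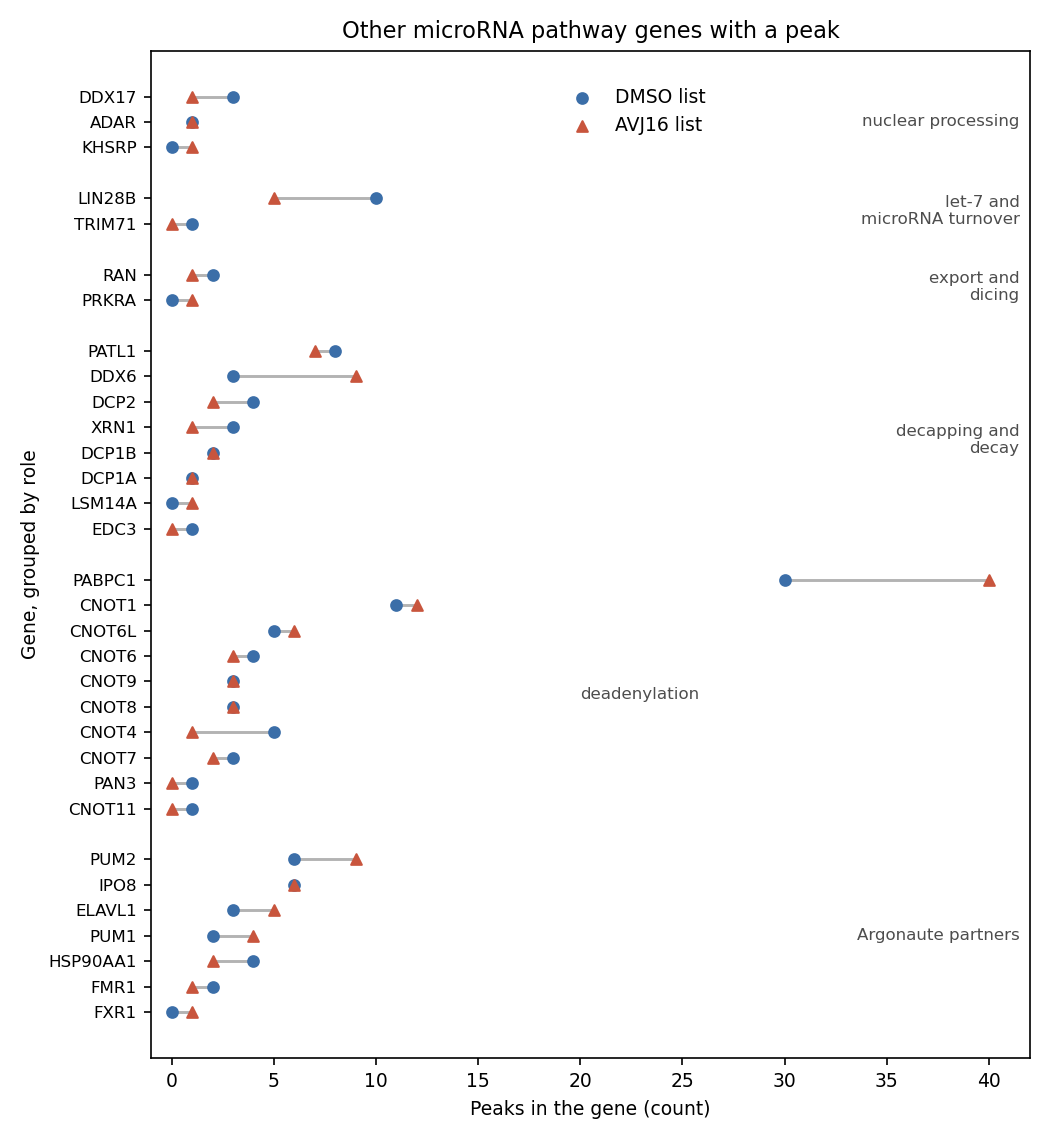
Number of IGF2BP1 peaks (x axis) in each of the 32 wider-list genes with a peak in either list, grouped by role (labels within the plot); blue circles are the DMSO list, red triangles the AVJ16 list, and the grey line joins them. PABPC1 lies at 30 and 40, LIN28B goes from 10 to 5 and DDX6 from 3 to 9.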

How the data were processed

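The authors trimmed adapters, discarded reads from repeats, mapped with STAR (build hg38 per the labels), removed PCR duplicates, called peaks with CLIPper and compared IP with SMInput in each peak. The deposited lists hold, for both replicates merged, the log2 fold enrichment and the −log10 p-value of each peak, which stops at 400. Aligner versions and the merging settings are not given in the sources used here. The methods name an older annotation for regions, and GENCODE release 44 was used here, with regions ranked coding sequence, 3'UTR, 5'UTR, then intron. Positions along a 3'UTR use the canonical transcript.

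Peaks were shared when they overlapped by at least 1 nt on the same strand, and the partner of a DMSO peak was the AVJ16 peak overlapping it most. A difference over 0.5 was counted. Alternatives are given at the end. Every sample column was used, no spread or p-value across replicates could be had, and depth is unknown. Peaks of PABPC1 and other multicopy genes were kept. Scripts ran in Python 3.11.15 with pandas 2.3.3, numpy 2.4.6, scipy 1.17.1 and pysam 0.24.0, and assignment and pairing were tested on simulated data. The 10 genes, the wider list and the motifs were chosen with earlier results of these data known. The genes named were the 10, the 8 of the wider list with most peaks, those with a shared peak beyond 1 in size, and, chosen after their values were seen, DGCR8, DDX17, ADAR, KHSRP, RAN, PRKRA and TARBP2.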

Additional observations from a re-analysis of the deposited data

How the results depend on the processing

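No paired analysis was possible because each list merges its replicates, which also meant that none could be left out. With a minimum log2 enrichment of 4, the 10 genes kept 2 DMSO and 2 AVJ16 peaks in 2 and 2 genes, the 3'UTR share with DMSO was 100%, and the wider list had 8 and 8 bound genes. Asking for at least 2 separate sites left 3 of the 10 genes and 17 of the wider list with AVJ16. With an overlap of 50% of both peaks, the median difference was 0.019 over 12 pairs in place of -0.09 over 17. Joining touching peaks left 0 higher by over 0.5, as did leaving out AGO2 (chosen after seeing the data), and a limit of 1 left 0 lower and 0 higher. In peaks that were not widened, GGAC with DMSO was in 2, CCNGUU with AVJ16 in 1, UCCAG in 1 with DMSO and 3 with AVJ16, and GNGGCCC with AVJ16 in 0; in windows of equal length, also chosen after seeing the data, GGAC with DMSO was in 3. The other 65 values that answer a comparison kept their direction, stayed within 1.5 times, or stayed within the 95% interval. The direction of the median difference over the 10 genes rests on few peaks and on how they are paired.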
